A study of Mus musculus with 6 samples.

Results

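Glycolysis splits glucose into pyruvate in the cytosol. Its genes were followed here in neuron-enriched preparations of sensory ganglia from mice given leptin by gene transfer and from controls. The set holds 33 gene symbols, taken by name: the glucose carriers, the enzymes from hexokinase to pyruvate kinase, lactate dehydrogenase, the lactate and pyruvate carriers, pyruvate dehydrogenase with its kinases, and the enzymes that set phosphofructokinase activity. Because the symbol Aldoa belongs to a pair of Ensembl genes, they make 34 genes with 279 transcript rows, out of 54309 genes and 140789 transcript rows in the whole table. All 34 had a mean of at least 1 TPM (a length-corrected share of each library's transcripts) over the 6 libraries and entered the test across 15108 genes.

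The libraries came from the dorsal root ganglia (DRG, which house the cell bodies of sensory neurons), levels L4 to L6, of male C57bl/6 mice, 8 to 10 weeks old. Every animal received an adeno-associated virus (AAV) in both sciatic nerves, and 4 weeks later its dorsal columns, which carry the central branches of sensory axons, were cut. The control group received AAV-GFP, which encodes only the fluorescent protein, and the other group received AAV-Leptin-GFP, with 3 libraries in each. Ganglia were taken 24 hours after the injury, dissociated with enzymes and enriched for neurons on an albumin gradient, so both groups share virus, GFP, injury and dissociation, and no uninjured group enters the comparison. The labels name neither the promoter in the vectors nor whether a library is 1 animal or a pool. The p-values hence reflect variation among these libraries, some of it possibly technical.

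As background, neurons draw most of their ATP from glucose. Glucose enters through facilitative carriers, is trapped by hexokinase as a phosphate, and is committed to glycolysis by phosphofructokinase. The pyruvate that results either enters mitochondria, through the mitochondrial pyruvate carrier and the pyruvate dehydrogenase complex, or is reduced to lactate by lactate dehydrogenase and moved across the plasma membrane by monocarboxylate carriers. Pyruvate dehydrogenase kinases switch the complex off. In peripheral nerve, glial cells are known to pass lactate to axons, and the same enzymes occur as isozymes that differ between neurons and glia.

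The library facts that touch these genes are as follows. Markers of sensory neurons were abundant, with 12 of 12 detected at 1 TPM or more and a summed level of 23296 to 25098 TPM. Their sums overlapped between the groups. The log2 fold changes of 9 were below 0 and of 3 above. At an unadjusted p under 0.05 (limma), 3 were lower (Tubb3, Uchl1 and Prph) and 1 was higher (Isl1). Over all tested genes 50.1% were below 0, and at that threshold 8.19% lay lower and 11.3% higher. Among tested genes averaging 100 TPM or more, 77.9% were below 0 and 29.8% lay lower at that threshold. Satellite glia, which wrap the neuron cell bodies, remained in the preparation: their 7 markers summed to 8140 to 9296 TPM with AAV-GFP and 7305 to 8014 TPM with AAV-Leptin-GFP, so the sums did not overlap. Apoe made up most of that sum, at 7164 ± 464 and 6229 ± 284 TPM (SD, n = 3). The list had no common direction: 4 markers were below 0, among them Apoe (log2 fold change -0.20) and Fabp7 (-0.53), and 3 were above, Glul (0.14, unadjusted p = 0.0410), Sox10 (0.21) and Cdh19 (0.20). Schwann cell markers summed to 990 to 1033 TPM with AAV-GFP and 860 to 949 TPM with AAV-Leptin-GFP, again without overlap. All 8 were at 1 TPM or more, and 7 were below 0. The 7 endothelial markers, of which 5 were at 1 TPM or more, summed to 75.9 to 76.7 TPM with AAV-GFP and 61.4 to 71.0 TPM with AAV-Leptin-GFP. Egfl7 alone gave 65.8 and 56.2 TPM of these sums on average, and each of the other endothelial markers overlapped between the groups. Erythroid markers overlapped between the groups, but AAV-Leptin-GFP replicate 3 stood apart at 1724 TPM against 170 to 374 TPM in the other libraries. Macrophage, fibroblast and skeletal muscle marker sums overlapped between the groups. Genes of the mitochondrial genome took 5.66% to 6.13% of TPM with AAV-GFP and 7.35% to 9.15% with AAV-Leptin-GFP. Lep was listed at 0 in the controls and at 0.751, 0.547 and 3.56 TPM with AAV-Leptin-GFP, which fits the group labels. In bulk RNA, fewer cells of a type and less RNA per cell cannot be told apart.

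Sequences of 3 members carry the transcript-level results. The pyruvate kinase gene Pkm makes its M1 or its M2 form by including either of a pair of mutually exclusive exons of 167 bases each, and only transcripts holding one or the other were counted below. Both exons are shown on the plus strand of GRCm38, M1 at chr9:59675029-59675195 and M2 at chr9:59675568-59675734, with capitals at the 64 positions where they differ (61.7% identity).
Pkm exon M1: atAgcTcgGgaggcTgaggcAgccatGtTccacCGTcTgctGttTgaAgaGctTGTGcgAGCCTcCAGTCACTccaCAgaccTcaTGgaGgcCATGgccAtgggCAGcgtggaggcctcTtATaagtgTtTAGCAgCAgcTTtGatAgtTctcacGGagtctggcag
Pkm exon M2: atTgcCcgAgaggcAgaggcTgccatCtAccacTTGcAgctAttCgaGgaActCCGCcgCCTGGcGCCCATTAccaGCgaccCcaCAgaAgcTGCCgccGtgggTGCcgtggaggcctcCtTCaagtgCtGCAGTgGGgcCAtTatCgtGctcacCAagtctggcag

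Gpi1 and Eno2 are shown because retained-intron transcripts of these genes, RNAs that keep part or all of an intron, had the largest log2 fold changes among the members' transcripts of that class. Both genes lie on the minus strand, and capitals mark the GT and AG at the ends of an intron. The junctions of Gpi1 intron 9 of 17 (chr7:34208311-34215955, 7645 bases) are given with 15 bases of exon on the outer side of each. For Eno2, the whole of intron 9 of 11 (chr6:124762762-124763004, 243 bases) is given with 15 exon bases on each side.
Gpi1 intron 9, 5 prime junction: ttcgagttctgggatGTaagtacgggcacc
Gpi1 intron 9, 3 prime junction: ttccttctctcctAGtgggtaggtggccgc
Eno2 intron 9: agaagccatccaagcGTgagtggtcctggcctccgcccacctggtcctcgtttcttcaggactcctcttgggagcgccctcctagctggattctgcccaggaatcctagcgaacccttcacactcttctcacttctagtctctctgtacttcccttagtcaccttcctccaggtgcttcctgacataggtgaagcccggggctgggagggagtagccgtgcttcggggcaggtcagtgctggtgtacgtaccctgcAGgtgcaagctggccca

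In the test across all genes, Ldha was lower with AAV-Leptin-GFP and no member was higher. Ldha encodes the lactate dehydrogenase subunit that dominates in tissues making lactate. The background is 1.61% of 15108 genes called at an adjusted p under 0.05, 233 higher (1.54%) and 10 lower (0.0662%). At an unadjusted p under 0.05, 8 members lay on the lower side, against 8.19% of all tested genes, and 2 on the higher side, against 11.3%. The 8 were Ldha, Tpi1, Aldoc, Pgam1, Eno1, Gapdh, Pgk1 and Aldoa, and the 2 were Slc16a3 and Pfkfb2. The AAV-Leptin-GFP libraries all lay below the AAV-GFP libraries for 10 members (11.9% of all genes) and all above them for 1 (13.3%). The median log2 fold change of the 34 members was -0.06, beside 0.00 over all tested genes, and 21 members were below 0, as were 50.1% of all tested genes.

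**Figure D1:**
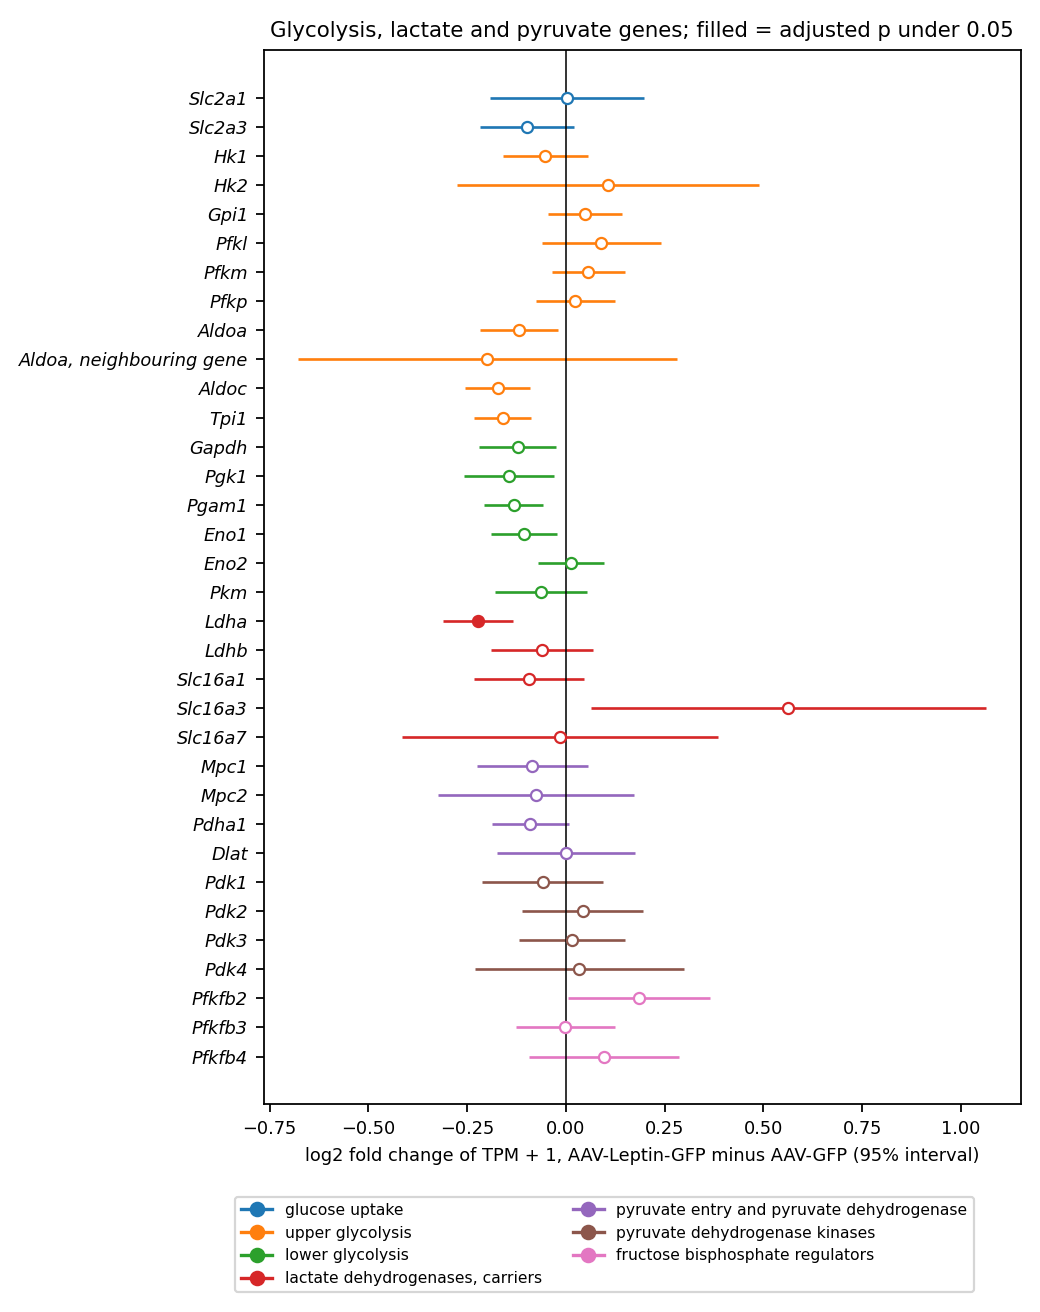
Log2 fold change of log2(TPM + 1), AAV-Leptin-GFP minus AAV-GFP, for the 34 member genes in rows, with 95% intervals from limma and colours by role. Ldha, the filled point at -0.22, is the only member past the adjusted threshold, and "Aldoa, neighbouring gene" is the second Ensembl gene of that symbol.

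These counts have to be read with the level of the genes. Among the 1962 tested genes that averaged 100 TPM or more, 77.9% were below 0, 29.8% lay lower at an unadjusted p under 0.05, and the median log2 fold change was -0.08. Members at that level numbered 19, of which 15 were below 0 and 8 lay lower at an unadjusted p under 0.05, with a median of -0.08. The members' median thus equals that of abundant genes to 2 decimals. The share of TPM on all members together was 1.42% in each AAV-GFP library and 1.33%, 1.35% and 1.33% with AAV-Leptin-GFP. Over the same fixed total, the share on mitochondrial genes given above was higher in the AAV-Leptin-GFP libraries. With the TPM rescaled without those genes, 4 members lay lower and 2 higher at an unadjusted p under 0.05, against 4.64% and 13.8% of all genes tested that way. After quantile normalization 2 lay lower and 4 higher, against 9.47% and 9.29%. That normalization moved the log2 fold changes of Tpi1 to -0.06, Pgk1 to -0.05, Gapdh to -0.05, Pgam1 to -0.04 and Eno1 to -0.0059. Each was under its value as deposited, given below, by more than 1.5 times. Ldha was not exempt from such shifts: its log2 fold change nearest 0 over the other settings was -0.14, against -0.22 as deposited.

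**Figure D2:**
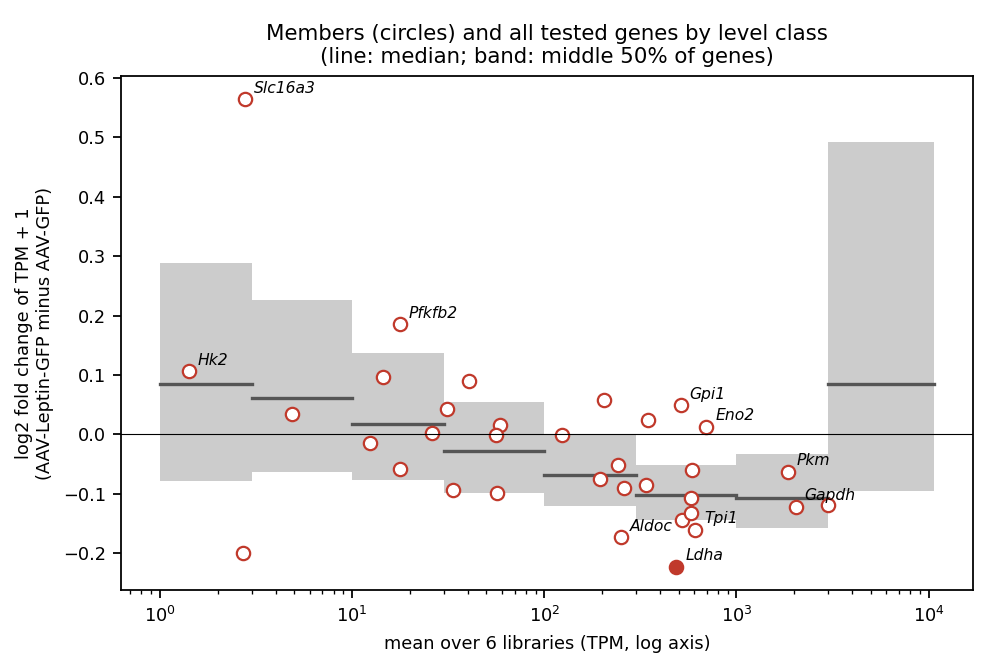
Log2 fold change (AAV-Leptin-GFP minus AAV-GFP) against mean level in TPM on a log axis, with the 34 members as circles (filled: Ldha) and all tested genes as a median line and a band of the middle 50% in each level class. The median line lies below 0 from 30 to 3000 TPM, and the members in that range lie on both sides of it.

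Glucose uptake was represented by Slc2a1 and Slc2a3, which encode the carriers GLUT1 and GLUT3; GLUT3 is the carrier typical of neurons. Slc2a3 had the higher level, with 60.1, 58.3 and 56.7 TPM in the AAV-GFP libraries and 56.3, 54.2 and 52.8 TPM in the AAV-Leptin-GFP libraries. The groups did not overlap, but the log2 fold change of -0.10 (SE 0.05) had an adjusted p of 0.335. Slc2a1 ranged from 23.8 to 28.1 TPM with complete overlap and a log2 fold change of 0.00 (SE 0.08). The Slc2a3 share of both carriers averaged 69.3% ± 1.02 in control and 67.8% ± 1.48 in leptin libraries (SD, n = 3).

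Upper glycolysis, from hexokinase to triose phosphate isomerase, had 10 member genes, of which 5 were below 0 and 5 above. None was called, and 3 lay lower at an unadjusted p under 0.05: Aldoa, Aldoc and Tpi1. Aldoa, the aldolase that splits the hexose bisphosphate, was the most abundant member, at 3104, 3187 and 3023 TPM with AAV-GFP and 2897, 2973 and 2712 TPM with AAV-Leptin-GFP. Its groups did not overlap, and its log2 fold change was -0.12 (SE 0.04, adjusted p = 0.190). Aldoc, the aldolase of brain and glia, stood at 261, 269 and 266 TPM with AAV-GFP and at 239, 232 and 234 TPM with AAV-Leptin-GFP. The gap between the Aldoc groups was wide against their spread, and its log2 fold change was -0.17 (SE 0.04, adjusted p = 0.0630).

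Tpi1, which interconverts the triose phosphates, was measured at 650, 641 and 643 TPM with AAV-GFP and at 578, 583 and 570 TPM with AAV-Leptin-GFP. The log2 fold change was -0.16 (SE 0.03) and the adjusted p of 0.0565 missed the threshold. With robust variance moderation in limma Tpi1 was called, at an adjusted p of 0.0481. Over the 18 other settings (the 100 TPM minimum aside), that was the only call of Tpi1, and adjusted p reached 0.309. Of its transcripts, ENSMUST00000239432.2 carried nearly all of the signal, with 625.5, 627.6 and 626.1 TPM with AAV-GFP and 557.6, 570.5 and 556.6 TPM with AAV-Leptin-GFP (log2 fold change -0.16, adjusted p = 0.0635 over transcripts). The coding transcripts Tpi1-205 and Tpi1-203 ranged from 2.41 to 18.8 TPM, with overlapping groups for each.

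No other upper enzyme had an unadjusted p under 0.05. Hk1, the hexokinase of brain and nerve, ranged from 229 to 255 TPM and made up 99.5% ± 0.0889 of hexokinase TPM in the AAV-GFP group and 99.4% ± 0.0607 in the AAV-Leptin-GFP group. Hk2, the inducible form, was the least abundant member at 1.05 to 1.64 TPM, with a log2 fold change of 0.11 (SE 0.16). Of the phosphofructokinases, the commitment step, Pfkp was the most abundant: it took 58.9% ± 0.434 of the summed Pfkl, Pfkm and Pfkp TPM in the AAV-GFP group and 58.2% ± 0.377 in the AAV-Leptin-GFP group. The fold changes of Pfkp, Pfkm and Pfkl were 0.02, 0.06 and 0.09 on the log2 scale, with overlapping groups for each. Gpi1, glucose phosphate isomerase, ranged from 494 to 534 TPM and had a log2 fold change of 0.05 (SE 0.04). The second Aldoa gene (ENSMUSG00000114515), which in GENCODE M21 lies just upstream of the first on the minus strand of chromosome 7, held 1.72 to 3.83 TPM with overlapping groups and a log2 fold change of -0.20 (SE 0.20).

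Lower glycolysis, the steps that yield ATP, had 6 members, and 5 of them were below 0. None was called, while 4 lay lower at an unadjusted p under 0.05: Gapdh, Pgk1, Pgam1 and Eno1. Gapdh, often used as a reference gene, was measured at 2222, 2118 and 2012 TPM with AAV-GFP and at 1961, 1954 and 1918 TPM with AAV-Leptin-GFP. The groups were separate, and the log2 fold change was -0.12 (SE 0.04, adjusted p = 0.172). Pgk1, which makes the first ATP of the pathway, stood at 520, 566 and 562 TPM against 495, 479 and 518 TPM. Its lowest AAV-GFP and highest AAV-Leptin-GFP libraries nearly met, and its log2 fold change was -0.14 (SE 0.05, adjusted p = 0.172).

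Pgam1, phosphoglycerate mutase, was at 611, 615 and 599 TPM with AAV-GFP and at 563, 554 and 548 TPM with AAV-Leptin-GFP. Its log2 fold change was -0.13 (SE 0.03, adjusted p = 0.0890), with separate groups. Eno1, the enolase found in most cells, was at 625, 599 and 588 TPM with AAV-GFP and at 565, 559 and 558 TPM with AAV-Leptin-GFP (log2 fold change -0.11, SE 0.04, adjusted p = 0.168). Eno2, the enolase used as a marker of neurons, had overlapping groups: it was at 700, 679 and 702 TPM and at 678, 713 and 710 TPM, with a log2 fold change of 0.01 (SE 0.04). The Eno2 share of enolase TPM was 52.8%, 53.1% and 54.4% in the AAV-GFP group and 54.5%, 56.0% and 56.0% in the AAV-Leptin-GFP group. These shares did not overlap, though the highest control and lowest leptin libraries were close. The flat Eno2 total sums transcripts of different kinds: coding Eno2 transcripts held 684 ± 12.4 and 659 ± 21.6 TPM, and retained-intron transcripts 9.22 and 40.5 TPM on average. The main coding transcript, ENSMUST00000004378.15, averaged 617 ± 8.46 and 590 ± 12.5 TPM, with separate groups. The share above was not recomputed on coding transcripts, and the part of the glial markers in it was not tested.

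**Figure D3:**
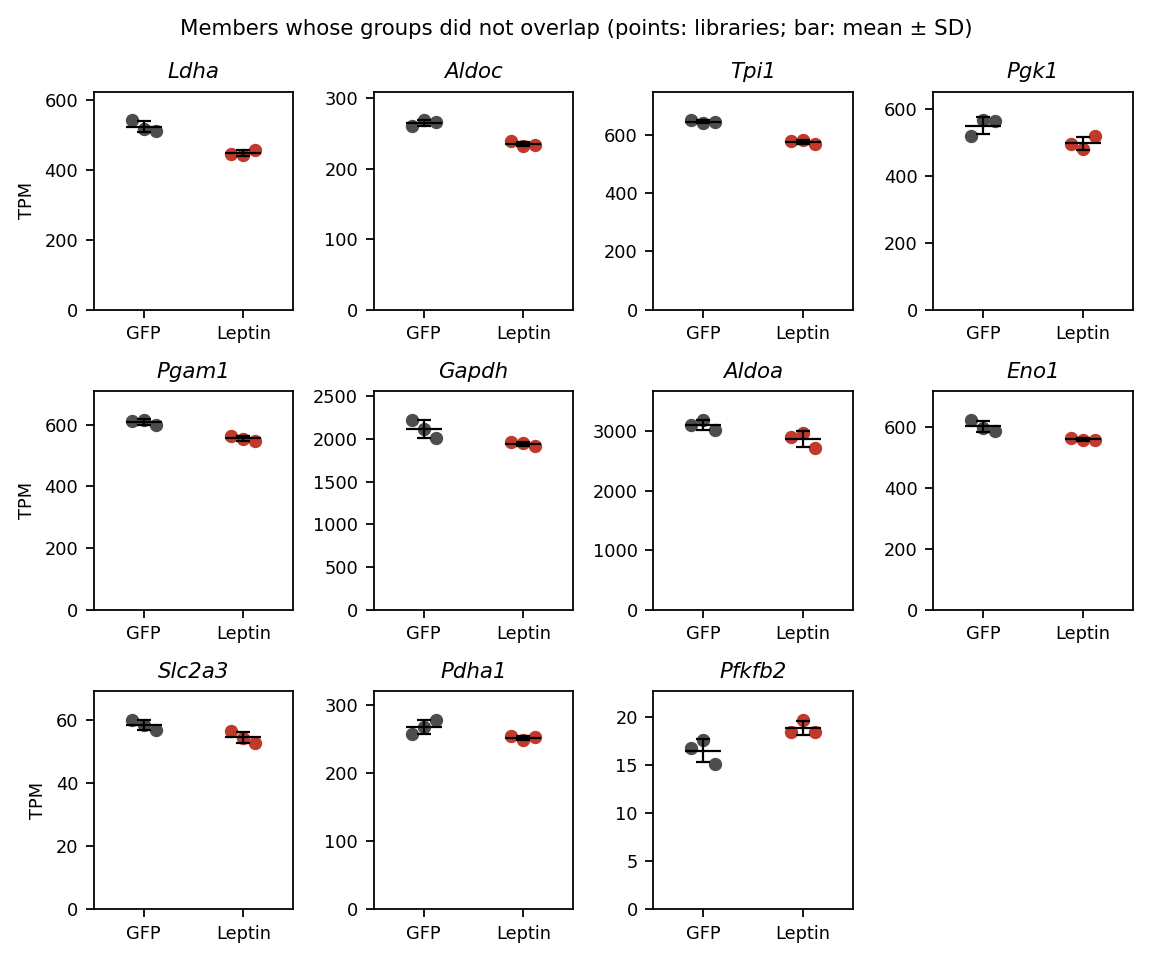
TPM in each of the 6 libraries, with group means ± SD, for the members whose groups did not overlap, each panel on its own axis. For 10 members every AAV-Leptin-GFP point lies below every AAV-GFP point, and for Pfkfb2 every point lies above.

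Pkm, the last step, ranked after Aldoa and Gapdh in level, at 1802 to 2007 TPM with AAV-GFP and 1731 to 1858 TPM with AAV-Leptin-GFP, with a log2 fold change of -0.06 (SE 0.05). Transcripts with the M1 exon, the form of mature neurons and muscle, held 1254, 1269 and 1366 TPM with AAV-GFP and 1182, 1260 and 1286 TPM with AAV-Leptin-GFP. Those with the M2 exon, the form of growing and glial cells, held 533.7, 577.7 and 625.7 TPM and 532.2, 552.8 and 555.8 TPM. M1 was thus 69.1% ± 0.863 of both in control and 69.4% ± 0.438 in leptin libraries (exact two-sided permutation test, p = 0.7, smallest possible 0.1). Between 99.0% and 99.5% of Pkm TPM lay on these transcripts. They also differ outside the exons printed above, since the M1 transcript Pkm-202 has 2041 bases and the M2 transcript Pkm-201 has 2432, so reads outside the exons also entered the estimate.

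Lactate dehydrogenase and the monocarboxylate carriers gave the only call. Ldha (ENSMUSG00000063229, chromosome 7, 46841475 to 46855627, plus strand, GRCm38) was measured at 543, 518 and 512 TPM with AAV-GFP and at 445, 444 and 458 TPM with AAV-Leptin-GFP. Every leptin library lay below every control library by more than either group's range. The means were 524 ± 16.4 and 449 ± 7.99 TPM (SD, n = 3), a change of -14.4%, and the log2 fold change was -0.22 (SE 0.04, adjusted p = 0.0405, limma). The call was made in 5 of 18 other settings, with adjusted p from 0.0323 to 0.174, over which the log2 fold change ranged from -0.24 to -0.14. It was lost when any 1 of the 6 libraries was left out, at adjusted p from 0.0588 to 0.174. The Schwann cell and sensory neuron markers given above were also mostly below 0, as were 77.9% of tested genes at 100 TPM or more. The satellite glia markers had no common direction. The part of any of these cell types in the Ldha difference was not tested. Nearly all of the level came from the coding transcript Ldha-202, at 536.1, 511.8 and 504.4 TPM and at 439.1, 431.6 and 447.5 TPM (log2 fold change -0.23, adjusted p = 0.0587 over transcripts). Ldha-207 stood at 1.88 to 4.93 TPM.

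Ldhb, the subunit of tissues that use lactate, was at 570, 607 and 620 TPM with AAV-GFP and at 557, 552 and 616 TPM with AAV-Leptin-GFP. These groups overlapped, and the log2 fold change was -0.06 (SE 0.06). Ldha made up 48.8%, 46.1% and 45.2% of both lactate dehydrogenase genes in the AAV-GFP group and 44.4%, 44.6% and 42.7% in the AAV-Leptin-GFP group. The shares did not overlap but nearly touched, and no test of their difference was made.

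**Figure D4:**
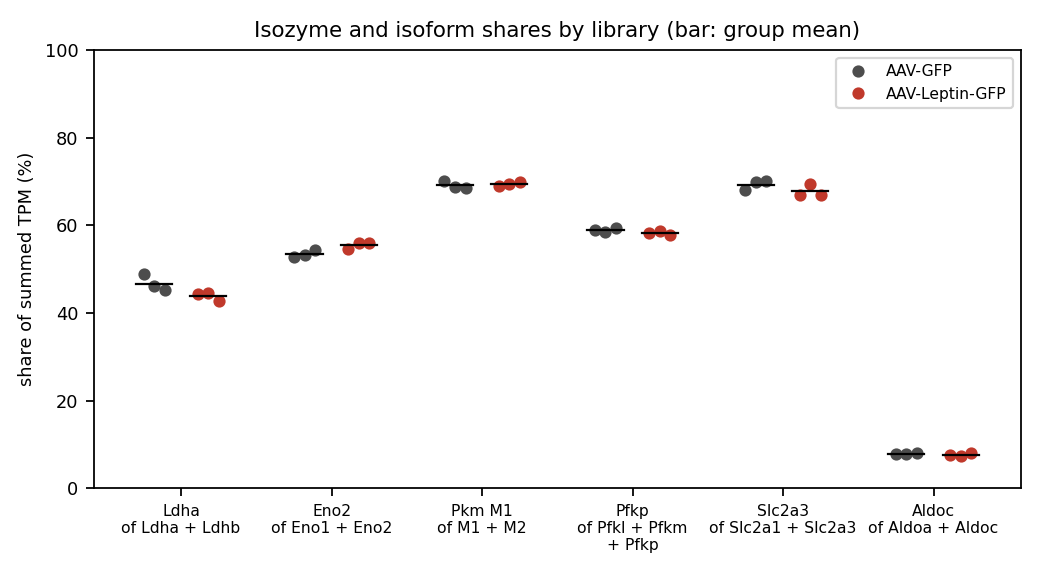
Share of TPM in percent within isozyme groups (lactate dehydrogenase, enolase, pyruvate kinase M1 and others), 1 point per library with group means. Ldha and Eno2 shares separate the groups, at 42.7% to 44.6% against 45.2% to 48.8% and at 54.5% to 56.0% against 52.8% to 54.4%, while the Pkm M1 share overlaps.

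The Ldha start region is shown because this was the called gene. The window is the 250 bases before the RefSeq start on GRCm38.p6, chr7:46845554-46845803, plus strand. Capitals mark matches to ACGTG, the core of the hypoxia response element, on either strand, completed to CACGTG where those letters occur, and to TGACGTCA, the cyclic AMP response element.
Ldha promoter: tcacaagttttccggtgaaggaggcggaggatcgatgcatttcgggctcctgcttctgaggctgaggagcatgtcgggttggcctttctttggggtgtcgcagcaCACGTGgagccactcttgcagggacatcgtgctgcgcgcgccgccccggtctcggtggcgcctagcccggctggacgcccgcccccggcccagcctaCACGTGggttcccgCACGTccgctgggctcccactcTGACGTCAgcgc
There are 3 stretches matching ACGTG, beginning 145, 48 and 34 bases before the start, and 1 matching TGACGTCA, 12 bases before it. ACGTG on either strand was found in this window for 14 of the 31 members with a listed promoter and for 18.5% of 27025 genes. TGACGTCA was found for 1 member, Ldha, and for 1.77% of those genes. A gene counted if any of its listed windows matched. Counted by window, ACGTG was in 18 of 48 member windows and in 16.6% of all 32851 windows. TGACGTCA was in 1 member window and in 1.55% of all windows. The members with ACGTG include Slc16a3 and Pfkfb2, on the higher side, as well as Aldoa, Pgam1 and Pgk1, on the lower. A match describes letters only, and no binding was measured.

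The monocarboxylate carriers showed no common direction. Slc16a3 encodes MCT4, a carrier of cells that export lactate, and it was scarce, at 3.15, 1.59 and 1.499 TPM with AAV-GFP and 3.48, 3.69 and 3.12 TPM with AAV-Leptin-GFP. AAV-GFP replicate 1 lay within the range of the leptin libraries, and the other control libraries lay well below it. The log2 fold change of 0.56 (SE 0.21, unadjusted p = 0.0323) had an adjusted p of 0.210. Without AAV-GFP replicate 1, Slc16a3 was called at a log2 fold change of 0.80 and an adjusted p of 0.0484. Slc16a1, the widespread MCT1, ranged from 31.6 to 36.0 TPM with a log2 fold change of -0.09, and Slc16a7, the neuronal MCT2, from 10.7 to 15.5 TPM with a log2 fold change of -0.01. Groups overlapped for both.

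Of the genes that bring pyruvate into mitochondria and oxidise it, all 4 were below 0 and none was called or lay under an unadjusted p of 0.05. Mpc1, the more abundant pyruvate carrier subunit, was at 369, 326 and 345 TPM with AAV-GFP and at 336, 306 and 337 TPM with AAV-Leptin-GFP (log2 fold change -0.08, SE 0.06). The libraries of the groups overlapped, as they did for its partner Mpc2, at 174 to 229 TPM with a log2 fold change of -0.07 (SE 0.11). The coding transcript of Mpc2 alone held 124 ± 2.60 and 104 ± 7.92 TPM with separate groups, and coding transcripts gave a log2 fold change of -0.26 (adjusted p = 0.105). Pdha1, the X-linked catalytic subunit of pyruvate dehydrogenase, did not overlap, at 258, 268 and 279 TPM against 254, 248 and 254 TPM. Its log2 fold change was -0.09 (SE 0.04, adjusted p = 0.289). Dlat, the acetyltransferase core of the complex, ranged from 115 to 138 TPM, with a log2 fold change that rounds to 0.00.

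The kinases that inhibit pyruvate dehydrogenase had 3 members above 0 and 1 below, with log2 fold changes from -0.06 to 0.04. Pdk3 was the most abundant, at 56.0, 58.1 and 62.3 TPM with AAV-GFP and at 57.3, 60.7 and 60.2 TPM with AAV-Leptin-GFP. The groups overlapped, as they did for Pdk1 (17.1 to 18.8 TPM), Pdk2 (28.9 to 33.0 TPM) and Pdk4 (4.503 to 5.59 TPM). Pdk4, which responds to fasting and fatty acids in many tissues, had a log2 fold change of 0.03 with an interval from -0.23 to 0.30.

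The Pfkfb enzymes make and remove the sugar phosphate that activates phosphofructokinase. Pfkfb3, the isoform with the strongest kinase activity, was the most abundant, at 56.4, 55.1 and 55.7 TPM with AAV-GFP and 58.9, 53.2 and 55.1 TPM with AAV-Leptin-GFP. Its log2 fold change rounds to 0.00, with an interval from -0.13 to 0.13. Pfkfb2 was at 16.8, 17.6 and 15.2 TPM with AAV-GFP and 18.4, 19.8 and 18.5 TPM with AAV-Leptin-GFP, the only member whose leptin libraries all lay above the controls. Its log2 fold change was 0.19 (SE 0.08, unadjusted p = 0.0449, adjusted p = 0.245). That direction came from transcripts outside the coding class: summed over coding and unclassed transcripts alone, Pfkfb2 had a log2 fold change of -0.10. Pfkfb4 ranged from 12.7 to 15.6 TPM with overlap.

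Gene totals sum RNAs of different kinds, and within the members the retained-intron transcripts stood on the higher side. No member transcript was called: of 33615 tested transcripts 44 were called (0.131%), and of the 114 tested member transcripts none, with 24 higher and 12 lower at an unadjusted p under 0.05 (12.3% and 6.01% of all tested transcripts). Of the 24 tested retained-intron transcripts, which belong to 9 member genes, 23 were above 0 and 18 stood higher at that threshold. Over all 4245 tested retained-intron transcripts, 84.1% were above 0 and 50% stood higher at the same threshold. Groups did not overlap, with leptin higher, for 17 of the members' 24 and for 51.3% of the class. The median log2 fold change was 1.30 for the members' and 0.88 for all. The difference between those medians was not tested. Transcripts entered by their mean over both groups, so those near 0 in the controls entered only through the AAV-Leptin-GFP libraries. Such transcripts are included in these counts and medians, for the members and for the class.

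Gpi1 had the clearest values. Gpi1-211, which holds 747 bases of the intron 9 whose junctions are printed above, was at 6.63, 3.30 and 3.76 TPM with AAV-GFP and 26.2, 27.2 and 19.8 TPM with AAV-Leptin-GFP. Its log2 fold change was 2.23 (SE 0.24, adjusted p = 0.0504 over transcripts). Gpi1-203, which holds 2067 bases of the same intron, was at 8.86, 1.605 and 2.59 TPM and at 35.7, 33.2 and 23.7 TPM, with a log2 fold change of 2.80 (SE 0.49, adjusted p = 0.0649). In both, every leptin library was above every control library, and AAV-GFP replicate 1 was the highest of the controls. Eno2-203, which holds the whole intron printed above, was at 11.9, 4.01 and 3.66 TPM and at 30.2, 28.1 and 24.0 TPM (log2 fold change 2.08, SE 0.39, adjusted p = 0.0683).

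The same separation was present at lower levels. Eno2-206 was at 0.185, 0.184 and 0 TPM with AAV-GFP and at 2.44, 2.52 and 3.64 TPM with AAV-Leptin-GFP, and Pfkp-210 at 0.198, 0 and 0 TPM and at 2.997, 3.03 and 2.08 TPM. Both had an adjusted p of 0.0528. Being near 0 in the controls, both passed the filter on mean TPM only through the AAV-Leptin-GFP libraries. Their separation is therefore partly set by that filter and adds no independent support. Aldoa-208 was the only one below 0, with 1 library of each group listed at 0. AAV-GFP replicate 1 was the highest control library in 18 of the 24 retained-intron transcripts. Without it, 14 member transcripts were called, 13 higher and 1 lower, when 3.56% and 0.244% of all tested transcripts were called in those directions, with Gpi1-211 and Gpi1-203 both at an adjusted p of 0.0160. With any other library left out, adjusted p (limma) was 0.0967 to 0.165 for Gpi1-211 and 0.129 to 0.195 for Gpi1-203. With the replicate block it was 0.152 for both.

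**Figure D5:**
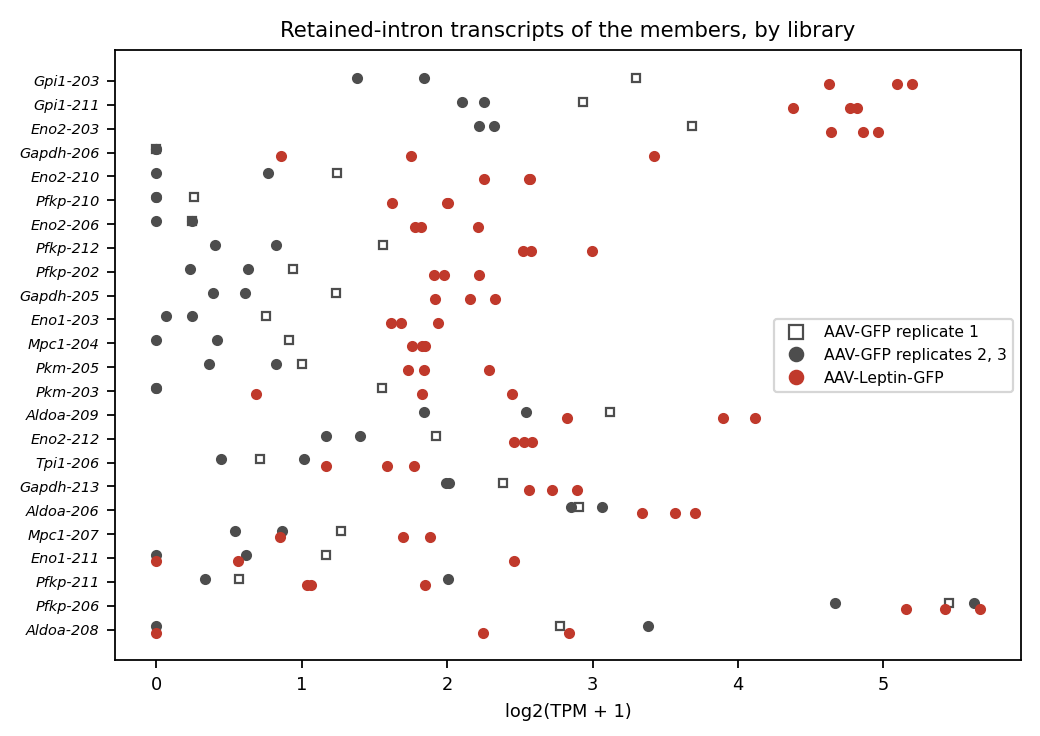
Log2(TPM + 1) of the 24 tested retained-intron transcripts of members in each of the 6 libraries, ordered by log2 fold change, with AAV-GFP replicate 1 as an open square, the other controls as dark circles and AAV-Leptin-GFP as red circles. For 17 transcripts the red circles all lie to the right of the control points, and the open square is the rightmost control point in 18.

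The share of TPM on retained-intron transcripts was also read within single genes. It is computed from the same TPM as the transcripts above, so it adds no independent support. Among the 22 members with both coding and retained-intron transcripts, it was higher in every leptin library than in any control library for 19 and lower for none, against 43.2% and 0.773% of 7246 genes. For Gpi1 the share was 2.94%, 1.18% and 1.28% in the AAV-GFP group and 12.1%, 11.5% and 8.68% in the AAV-Leptin-GFP group. For Eno2 it was 1.33% ± 0.862 and 5.79% ± 0.584, for Pfkfb2 0.942% ± 0.959 and 9.73% ± 1.11, and for Pfkp 12.1% ± 3.17 and 16.3% ± 1.97 (SD, n = 3). Each of these 4 has an exact permutation p of 0.1, the smallest that 3 against 3 libraries allow. In Aldoc, Hk1 and Pgk1 the groups overlapped, at shares of at most 0.554%. Some of the 19 also rest on shares near 0. Pgam1 was at 0%, 0.0410% and 0% with AAV-GFP and at 0.0446%, 0.725% and 0.121% with AAV-Leptin-GFP, and Pdha1 was at 0 in every control library. A gene entered if any library had retained-intron TPM above 0. Genes at 0 in every control, such as Pdha1, hence entered only through the AAV-Leptin-GFP libraries. The 7246 genes include all levels from a mean of 1 TPM and were not matched to the level of the members.

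Over all members, 0.636% ± 0.177 of TPM was on retained-intron transcripts in the AAV-GFP group and 1.74% ± 0.153 in the AAV-Leptin-GFP group. Over the whole libraries the values were 2.29% ± 0.2003 and 3.53% ± 0.260, and transcripts listed above 0 numbered 55476 to 60572 and 61474 to 64423. The part of these library-wide values in the members' shares was not tested. Coding and unclassed transcripts alone gave other gene directions: Gpi1 had a log2 fold change of -0.09, Eno2 -0.05, Pfkp -0.05 and Pfkl -0.04, each above 0 in the full sum. By that count 12 members lay lower at an unadjusted p under 0.05, against 12.4% of all genes summed that way, and 1 higher, against 6.47%.

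Other genes of the connected pathways were read from 9 lists, and none of their tested genes was called. The lists were chosen with earlier results of these data known. Their counts stand against 8.19% of all tested genes lower and 11.3% higher at an unadjusted p under 0.05, or 29.8% lower among genes at 100 TPM or more. For the pyruvate dehydrogenase complex and its phosphatases, 1 of 6 tested genes lay lower at an unadjusted p under 0.05: Pdhx, which anchors the E3 subunit, at 33.4 ± 1.47 and 27.3 ± 1.05 TPM (log2 fold change -0.28, adjusted p = 0.0710). For other glycolytic isozymes and side enzymes it was 2 of 14, led by Pgm2l1 (-0.17, adjusted p = 0.0864). For other hexose and monocarboxylate transport it was 1 of 13, Bsg, the chaperone that brings MCT1 and MCT4 to the membrane, at 609 ± 17.9 and 549 ± 9.88 TPM (-0.15, adjusted p = 0.0898). None of these 3 lists had a gene on the higher side at that threshold.

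The tricarboxylic acid cycle, with 14 of 16 genes at 100 TPM or more, had 4 of 16 on the lower side and none on the higher, led by Sdhb of succinate dehydrogenase (log2 fold change -0.15, adjusted p = 0.118). The glycerol phosphate and malate-aspartate shuttles, which carry cytosolic electrons into mitochondria, had 3 of 10, with 6 at 100 TPM or more, led by Slc25a11 (-0.17, adjusted p = 0.116). The pentose phosphate pathway had 1 of 8, Taldo1 (-0.17, adjusted p = 0.113), and gluconeogenesis with malic enzymes 1 of 11, Me1 (-0.17, adjusted p = 0.183), each with none higher. Glycogen metabolism had 1 of 14 lower and 2 higher, led by Phka2, a phosphorylase kinase subunit (0.34, adjusted p = 0.151). Among 28 regulators and hypoxia response genes, 2 lay lower and 4 higher. Arnt, the partner of the hypoxia-inducible factors, had the smallest p, at 8.52, 6.35 and 7.43 TPM with AAV-GFP and 13.5, 14.8 and 11.0 TPM with AAV-Leptin-GFP (log2 fold change 0.74, SE 0.14, adjusted p = 0.0517).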

How the data were processed

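Bulk RNA-seq of 6 libraries, 3 of AAV-GFP and 3 of AAV-Leptin-GFP, was grouped by the labels. The authors deposited TPM values per Ensembl transcript. The submitters' processing notes name the build GRCm38 (mm10) and, in no order, Salmon 1.6.0, DESeq2 1.34.0, Trim Galore 0.6.6 and FastQC 0.11.9. Which annotation release was used is not stated in the labels. Per the labels' protocols, libraries were stranded and made from mRNA. TPM keeps no depth, so depth is unknown and no counting intervals are given. Salmon splits reads among similar transcripts, so values are uncertain for members with processed pseudogenes (Gapdh, Aldoa, Pgk1, Pgam1, Ldha, Tpi1, Eno1, Pkm) and for the division of reads between retained-intron and coding transcripts.

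TPM were summed by gene identifier. Genes (15108) and, in a separate fit, transcripts (33615) with a mean of at least 1 TPM entered limma 3.58.1 (R 4.3.3; trend, two-sided, no covariates) as log2(TPM + 1), with Benjamini-Hochberg adjustment over all features and a threshold of 0.05. Fold changes on this scale understate changes of low genes. Within-gene shares were compared by exact permutation tests, whose smallest p is 0.1. Coordinates and transcript classes came from GENCODE M21 (276 of 279 member transcripts matched; the others have no class), and promoters from RefSeq (GRCm38.p6). The main Tpi1 transcript and the main Ldhb transcripts are among those with no class. Figures used Python 3.11.15 and matplotlib 3.10.9. The fits were tested on simulated data.

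Members and lists were chosen with earlier results of these data known. Values per library are printed for members called, members at an unadjusted p under 0.05 and the most abundant member of each role; the genes Eno2 and Pdha1 and transcripts of Gpi1, Eno2 and Pfkp were added after their values were seen. Alternatives were the pseudocount, the filter, the scaling, the transcripts summed, the limma options, a replicate block and leaving out each library.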

Additional observations from a re-analysis of the deposited data

How the results depend on the processing

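Calls over all genes, 243 in the reported analysis, numbered 4 with no filter on low values, 368 with median-ratio scaling, 57 with protein-coding transcripts only, 47 with protein-coding transcripts and those with no class, 35 without the trend, 74 with the replicate block and 62 among genes of at least 100 TPM, and ranged from 4 to 420 when 1 library was left out (420 without AAV-GFP replicate 1, 4 to 18 without any other). Member calls, 1 in the reported analysis, were 0 with no filter, with quantile normalization, without mitochondrial genes, with either choice of coding transcripts, without the trend and with the replicate block, 2 with robust moderation and 3 among genes of at least 100 TPM, where fewer genes were tested. They ranged from 0 to 1 when 1 library was left out, and the 1, without AAV-GFP replicate 1, was Slc16a3. The member median, -0.055, was -0.0125 after quantile normalization, -0.0219 without mitochondrial genes, -0.0801 with protein-coding transcripts only and also with the unclassed added, -0.0849 among genes of at least 100 TPM, and -0.0719 to -0.0300 with 1 library left out. Member transcript calls, 0 in the reported analysis, were 8 with a pseudocount of 5, 1 with quantile normalization, 3 with median-ratio scaling, 3 without mitochondrial genes, 5 without the trend, and 0 to 14 with 1 library left out. The cause of these shifts was not tested.

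Of single members, the log2 fold change of those near 0 changed sign in some settings. With protein-coding transcripts, with or without the unclassed, Dlat was 0.0050, Eno2 -0.0529, Gpi1 -0.0936, Pfkfb2 -0.104, Pfkl -0.0356 and Pfkp -0.0478, and without the unclassed Ldhb was 0.146, a sum that lacks its main transcripts. After quantile normalization Dlat was 0.0204, Hk1 0.0016, Hk2 -0.0192, Ldhb 0.0286, Mpc1 0.0032, Pdk4 -0.0868, Pkm 0.0314 and Slc2a1 -0.0246. Median-ratio scaling put Slc2a1 at -0.0024, and leaving out mitochondrial genes put Dlat at 0.0337, Pfkfb3 at 0.0324 and Slc16a7 at 0.0170. With 1 library left out, the range was -0.0795 to 0.0545 for Dlat, -0.0018 to 0.0366 for Eno2, -0.172 to 0.0256 for Mpc2, -0.00028 to 0.0878 for Pdk2, -0.0184 to 0.0577 for Pdk3, -0.0398 to 0.0901 for Pdk4, -0.0414 to 0.0311 for Pfkfb3, -0.157 to 0.142 for Slc16a7 and -0.0510 to 0.0608 for Slc2a1.

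The replicate numbers did not pair the libraries: deviations from the group means correlated at r = 0.03, -0.07 and -0.02 for the same numbers, across genes, and not every library correlated best with its own number. With the replicate block no member was called, and Ldha had an adjusted p of 0.0856. Pseudocounts of 0.1 and 5 changed no call or direction among the 34 members, nor did a minimum of 5 TPM among the 30 it tested. Alternatives chosen after seeing the data were the 100 TPM minimum and the coding plus unclassed transcripts. Unknown depth limits the low members Hk2, Slc16a3, Pdk4 and the second Aldoa gene.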
